A study of Homo sapiens and Mus musculus with 9 samples.

Results

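The fatty acid synthesis genes SCD and FASN were examined in enhanced UV crosslinking and immunoprecipitation sequencing (eCLIP) of the pregnane X receptor (PXR), a ligand-activated nuclear receptor for drugs and bile acids. The peaks described are all those of the 3 human peak lists whose summit lay within the GRCh38 (hg38) span of either gene. This rule found 11 peaks among 3706, of which 9 lay in SCD and 2 in FASN. The genes were taken for carrying peaks, so number, place, depth and sharing of the peaks are given as descriptions with no test.

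SCD encodes stearoyl-CoA desaturase, an enzyme of the endoplasmic reticulum that places the double bond in oleate and palmitoleate. FASN encodes fatty acid synthase, the large cytosolic enzyme that builds palmitate from acetyl-CoA and malonyl-CoA. Both are classical targets of the sterol regulatory element binding proteins and of the liver X receptors, and hepatocytes and many carcinoma cells transcribe them. PXR is best known as a transcription factor on DNA, whereas eCLIP records RNA fragments that are crosslinked to protein and recovered with an antibody.

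The human samples were LS174T cells, a colorectal adenocarcinoma line, and HepG2 cells, a hepatocellular carcinoma line. LS174T gave 1 input without antibody and 1 IP with a PXR antibody from wild-type cells, and 1 IP with the same antibody from PXR knockout cells. HepG2 gave 1 input and 2 IPs with an antibody to the HA tag. Neither whether the knockout line was 1 clone nor how the HA tag was carried is known from the labels. A further set of samples came from liver of mice with human PXR, and their mouse positions were not used here.

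Each list stands alone and gives nothing per library, so replicate spread is unknown. One list is named for HepG2 IP. The record ties the LS174T lists to the wild-type input and the wild-type IP, while their names and the peaks inside them read wild type and knockout. Here they go by those names, as the WT-named list and the KO-named list, and differences between them are assigned neither to genotype nor to the IP. The HepG2 list held peaks at 0 of 18 hepatocyte markers, ALB and APOA1 among them. It held peaks at 8 of 14 luminal breast markers, including ESR1, GATA3 and GREB1, at 2 of 14 colon markers and at 0 of 7 fibroblast markers. It is therefore called the HepG2-labelled list. The WT-named list had peaks at 9 of 14 colon markers, 5 of 14 luminal markers, 1 of 18 hepatocyte markers (HNF4A) and 0 of 7 fibroblast markers. The KO-named list had peaks at KRT8 and KRT19 of the luminal markers and at none of the hepatocyte, colon or fibroblast markers. The part of cell identity in the values below was not tested.

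Depth is given as the reads at a peak's summit and as the reads in the window of 10000 bp around it on the same strand. Both were worked out from the fold enrichment and −log10 p that the authors deposited for each peak. The fold is read here as a ratio over the reads of that window, not over the input. Intervals on reads are exact Poisson and on shares exact Clopper-Pearson, all at 95%. They cover counting error only, since the reads may include PCR copies.

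SCD lies on chromosome 10 from 100347233 to 100364826 on the plus strand and spans 17594 bp. Its first peak reached back over the annotated start, so the bases there are shown from the RefSeq table (GRCh38.p14, plus strand). The first line gives the 250 bases before the start, chr10:100346983-100347232, with matches to the letters CCAAT in capitals. The second runs from the first base of the WT-named peak to the first base of the HepG2-labelled peak, chr10:100347212-100347262, with the transcribed bases in capitals.
SCD upstream: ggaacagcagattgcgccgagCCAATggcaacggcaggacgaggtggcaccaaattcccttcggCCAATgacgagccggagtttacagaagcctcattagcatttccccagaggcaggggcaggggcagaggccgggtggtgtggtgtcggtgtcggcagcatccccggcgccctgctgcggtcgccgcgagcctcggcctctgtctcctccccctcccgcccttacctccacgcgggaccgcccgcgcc
SCD start: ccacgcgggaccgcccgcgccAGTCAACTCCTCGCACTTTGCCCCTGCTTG
The WT-named peak covered the last 21 bases before the start, and the HepG2-labelled peak began at base 30 of the transcribed strand. CCAAT, the core of the site bound by the factor NF-Y, was found 2 times on the plus strand, 229 to 225 and 186 to 182 bases before the start. It was searched on both strands, and 32.0% of 35116 promoter stretches of the same length held it. The letters TATAAA, the core of the TATA box, were in these bases on neither strand, and 10.7% of the stretches held them. The half-sites of nuclear receptors AGTTCA (8.80% of the stretches) and the related AGGTCA (12.1%) were not in them either. The matches overlapped neither each other nor a called peak.

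SCD carried 3 peaks in the HepG2-labelled list and 6 in the WT-named list, at the start of the gene and in the last 20% of its span in both. At least 3 peaks in the HepG2-labelled list were found in 16 genes (0.0799% of 20037 protein-coding genes), and 2 of them had more than SCD. At least 6 in the WT-named list were found in 9 genes (0.0449%), and 5 had more than SCD. These shares set the scale for a gene chosen by the same counts and are no support for it.

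In the HepG2-labelled list the first summit lay 258 bp into the gene with 35 reads (24.4 to 48.7) of the 88 in its window, a deposited fold of 13.0. The next summit lay 15372 bp into the gene with 23 reads (14.6 to 34.5). The third lay at 15720 bp, only 348 bp further on, with 26 reads (17.0 to 38.1), and both stood in windows of 205 reads. No peak was listed in the 15114 bp between the first and the second summit. The first site held the most reads of the 3, and the Poisson intervals of the 3 overlap.

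In the WT-named list the first SCD summit lay 171 bp into the gene with 25 reads (16.2 to 36.9) of the 83 in its window. Further summits followed at 978 bp with 14 reads (7.65 to 23.5), at 9504 bp with 19 reads (11.4 to 29.7) and at 14088 bp with 26 reads (17.0 to 38.1). The last pair lay at 15503 bp with 21 reads (13.0 to 32.1) and at 15848 bp with 27 reads (17.8 to 39.3), in windows of 184 reads. Reads were thus spread over the gene in this list, with the lowest value just behind the start and overlapping intervals throughout.

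FASN lies on chromosome 17 from 82078338 to 82098236 and spans 19899 bp. It is transcribed from the minus strand, as is known for the gene. It carried 1 peak in each of these lists, close to the end of the gene. Of the 20037 protein-coding genes 4.90% had at least 1 HepG2-labelled peak, 6.43% a WT-named peak and 2.22% both, and 898 of the 981 genes in the first list had a single peak, as FASN did. The HepG2-labelled summit lay 368 bp before the end with 41 reads (29.4 to 55.6) of 344 in the window. The WT-named summit lay 268 bp before the end with 29 reads (19.4 to 41.6) of 245. No FASN peak was listed elsewhere in its span, the start included.

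**Figure D1:**
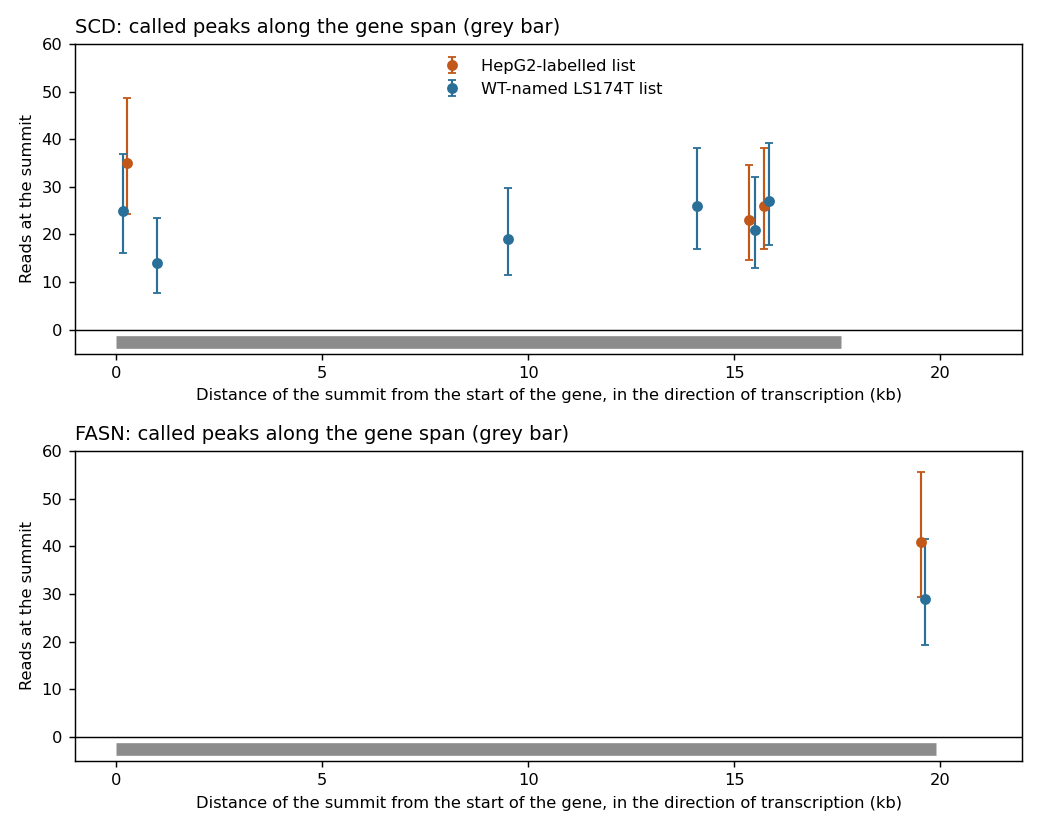
Reads at the summit of each called peak against its distance from the start of SCD (top) and FASN (bottom), in kb in the direction of transcription. Points are single peaks, colours the HepG2-labelled and WT-named lists, bars exact Poisson 95% intervals, and the grey bar the gene. SCD has peaks at its start and near its end in both lists and between them in the WT-named list, and FASN has 1 peak near its end in each.

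All 4 peaks of the HepG2-labelled list met a WT-named peak on the same strand, as did 4 of the 7 WT-named peaks. Over all protein-coding genes 39.2% of 1083 HepG2-labelled and 25.3% of 1697 WT-named peaks did so. Among peaks within the members' range of depth the shares were 61.8% of 102 for the HepG2-labelled list (23 to 41 reads) and 29.6% of 443 for the WT-named list (14 to 29 reads). The WT-named SCD peaks at 978, 9504 and 14088 bp had no HepG2-labelled partner. In windows of 83 to 205 reads, the range of the SCD windows, the 110 HepG2-labelled peaks called had at least 13 reads. The reads a call needs rise with the window, so these sites may hold HepG2-labelled reads that were not called, and their absence from the list is not an absence of reads.

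At the 4 sites found in both lists the read ratios at the summit ran from 0.963 to 1.41, with wide counting intervals that included 1. The HepG2-labelled list held 35 reads against 25 at the start of SCD, a ratio of 1.40 (interval 0.814 to 2.44), and 23 against 21 and 26 against 27 near its end (ratios of 1.10, interval 0.580 to 2.08, and 0.963, interval 0.540 to 1.71). At FASN it held 41 against 29, a ratio of 1.41 (interval 0.858 to 2.36). Over 425 such sites in protein-coding genes the median ratio was 0.933 (quartiles 0.579 and 1.40), with 102 sites above the start of SCD and 101 above FASN. Among the 63 of these sites with 23 to 41 HepG2-labelled reads, the members' range, the median was 1.14 (quartiles 0.582 and 1.68). All 4 ratios lay within those quartiles. The window of FASN held 1.40 times as many reads in the HepG2-labelled list (interval 1.19 to 1.66), and the last window of SCD 1.11 times (interval 0.909 to 1.37). The median window ratio over the 425 sites was 1.05 (quartiles 0.644 and 1.77), and both of these window ratios lay within the quartiles. The windows at the start and end of SCD do not overlap, and the first held 30.0% of their reads in the HepG2-labelled list (interval 24.8 to 35.6%) and 31.1% in the WT-named list (interval 25.6 to 37.0%). The first summits lay 258 and 171 bp from the start of the gene and the last 1875 and 1747 bp from its end, HepG2-labelled first. The first window thus covers less of the gene than the last, and its share is not corrected for this. These values compare 2 lists, not 2 conditions.

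The summits of the partners did not coincide. They lay 87 bp apart at the start of SCD, 131 and 128 bp apart near its end and 100 bp apart in FASN. All of these distances are shorter than the 200 bp to which reads were taken as extended. Whether they exceed the error of a summit was not tested. Over the 425 sites the median distance was 24.0 bp (quartiles 6 and 62.0), and between 11.8% and 18.6% of them lay further apart than a site in these genes. Among the 63 sites with 23 to 41 HepG2-labelled reads the median was 32.0 bp (quartiles 8.50 and 85.0). The distances in SCD and FASN lay above both upper quartiles, that at the start of SCD only just above the latter. The HepG2-labelled summit was the one further inside the gene at the start of SCD and in FASN, and the one nearer to the start of SCD in its last pair. The first SCD peak was broad in both lists, with 388 and 440 bp against medians of 204 and 218 bp in protein-coding genes, HepG2-labelled first. These medians lie near the lowest width of 200 bp, which 488 of 1083 HepG2-labelled and 540 of 1697 WT-named peaks had. The peaks behind them held a median of 10.0 and 11.0 reads, and widths were not compared at like depth. The FASN peak measured 407 and 239 bp.

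The KO-named list, with peaks in 0.0848% of protein-coding genes, held no peak in SCD or FASN and none on chromosome 10. Of its 46 peaks 19 lay in protein-coding genes, with at least 7 reads each. In windows of 83 to 205 reads, the range of the SCD windows, it had only 5 peaks, with at least 24 reads each. Genes of like depth were seldom in it. Of 45 protein-coding genes whose deepest WT-named peak held 25 to 29 reads, as SCD (27 reads) and FASN (29 reads) did, 1 had a KO-named peak, against 8 of 20 genes with at least 100 reads. The list has only called peaks, so the level of SCD or FASN RNA behind it is not known.

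All 11 peaks lay on the strand from which the gene is transcribed. The same held for 86.5% of the HepG2-labelled peaks in protein-coding genes whose strand was known (interval 84.1 to 88.7%) and for 94.9% of the WT-named ones (interval 93.6 to 96.0%). Along the gene, the first 10% of the span held 50.4% of sense peaks in the HepG2-labelled list and 43.8% in the WT-named list, and the last 10% held 15.7% and 21.1%. SCD had peaks at 1.46%, 87.4% and 89.3% of its span in the first list. In the second they lay at 0.966%, 5.55%, 54.0%, 80.1%, 88.1% and 90.1%. The FASN peak lay at 98.2% and 98.7%, in that last stretch. A peak within 500 bp of the start was found in 348 HepG2-labelled genes, of which 23, SCD among them, also had one in the last 20% of the span. In the WT-named list these were 76 of 509 genes. Exons were not used here, so the place within the mature mRNA is not given.

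**Figure D2:**
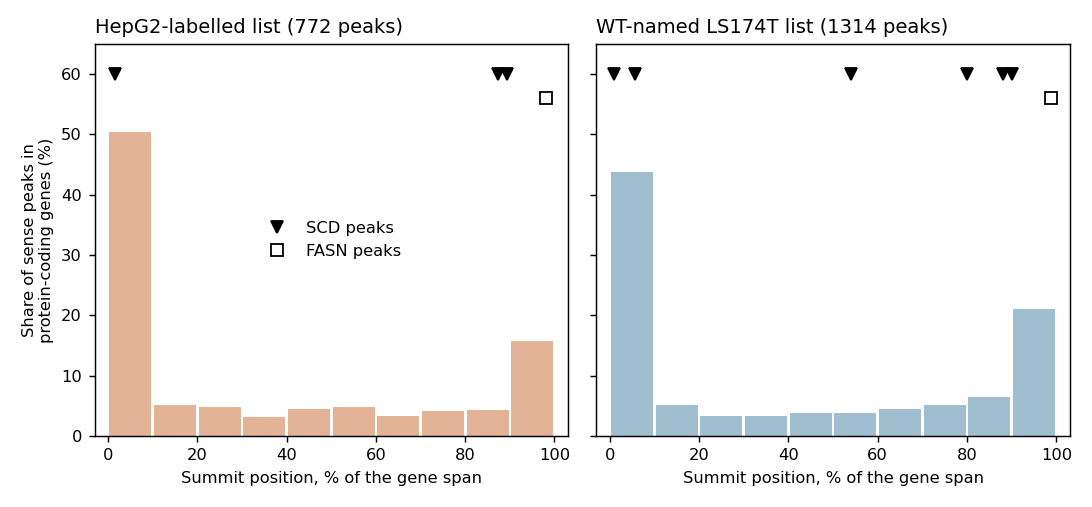
Share (%) of sense peaks in protein-coding genes by summit position, in steps of 10% of the gene span from start to end, for the HepG2-labelled (left) and WT-named (right) lists. Triangles mark SCD peaks and squares FASN peaks, at heights with no meaning; SCD has peaks in the raised first 10% in both lists and a pair near 90%, the WT-named list adds peaks at 54.0% and 80.1%, and FASN lies in the raised last 10%.

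The peaks of both genes stood among many other reads. Their windows held 88 to 344 reads in the HepG2-labelled list and 83 to 245 in the WT-named list, against medians of 21.0 and 23.0 for peaks in protein-coding genes. The share of window reads at the summit was correspondingly low. It was 39.8% (interval 29.5 to 50.8%) and 30.1% (interval 20.5 to 41.2%) at the start of SCD, HepG2-labelled first, and between 11.2% and 19.4% at the other 9 peaks, where the medians were 52.6% and 50.0%. These medians come from peaks with a median of 10.0 and 11.0 reads, HepG2-labelled first, and shares were not compared at like depth. SCD peaks that lay close together also had each other's reads in their windows. Of 1083 HepG2-labelled peaks in protein-coding genes, 37 held more reads than FASN and 51 more than the first SCD peak. By deposited fold 77 ranked above the first SCD peak and 901 above FASN. FASN therefore ranked high by reads and low by fold, and in the WT-named list 194 of 1697 peaks held more reads and 1573 had a higher fold.

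By the reads of the deepest peak in each of these 2 lists, SCD and FASN were near neighbours among the 444 protein-coding genes with a peak in both. SCD stood at 35 and 27 reads, HepG2-labelled first, and FASN at 41 and 29, a distance of 0.25 on the log2 scale. The SCD values come from different sites, at 1.46% and 90.1% of the span, and the FASN values from a single shared site. At the sites shared by both lists SCD held 35 and 25 reads at its start, and up to 26 and 27 near its end. The ranking takes the deepest peak of a gene wherever it lies. Counting intervals of such reads are wide, as with 24.4 to 48.7 for the 35 reads of SCD. They do not settle the order of near neighbours. The genes nearest to SCD were the linker histone gene H1-2 (33 and 27 reads), the histone gene H3C2 (37 and 24), the cyclin D1 gene CCND1 (35 and 31) and NPDC1 (30 and 25). FASN was nearest to CTSD, the gene of the lysosomal protease cathepsin D (44 and 32 reads), followed by CCND1, SCD, H3C2 and H1-2. Histone genes have near-identical copies, and reads among them are uncertain. In the HepG2-labelled list 34 of the 444 genes had a deeper peak than SCD and 28 than FASN, and in the WT-named list 78 and 71. None of the 444 had more HepG2-labelled peaks than SCD.

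**Figure D3:**
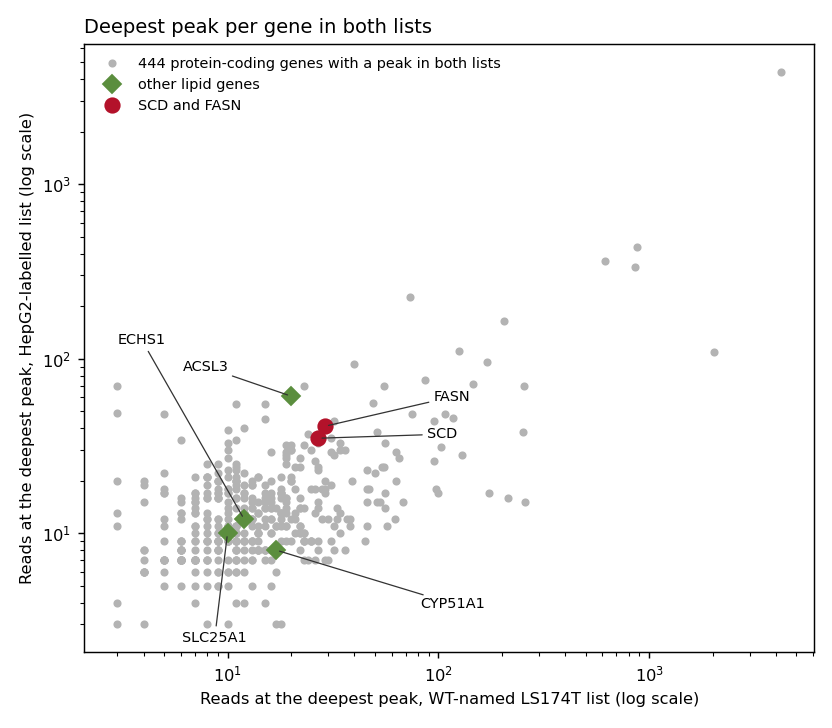
Reads at the deepest peak of each of 444 protein-coding genes with a peak in both lists, WT-named on the x axis and HepG2-labelled on the y axis, both log scales. Each point is a gene. SCD and FASN (red) lie side by side above 3 of the other 4 lipid genes (green), with ACSL3 higher on the y axis. The deepest SCD peak lies at the start of the gene in the HepG2-labelled list and near its end in the WT-named list.

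Of the 28 genes of fatty acid synthesis, 3 (10.7%) had a peak in the HepG2-labelled list and 7 (25.0%) in the WT-named list, against 4.90% and 6.43% of all protein-coding genes. Without SCD and FASN, which were chosen for their peaks, 1 of 26 (3.85%, interval 0.0973 to 19.6%) and 5 of 26 (19.2%, interval 6.55 to 39.4%) had one, and all of these held fewer reads than SCD or FASN. Besides SCD and FASN the former count holds SLC25A1, the mitochondrial citrate carrier, with 10 reads in each list. The WT-named list added the desaturase gene FADS2 (3 peaks, up to 12 reads), the acetyl-CoA synthetase gene ACSS2 (9 reads), and HSD17B12 (14 reads) and TECR (5 reads) of fatty acid elongation. ACLY, ACACA and ELOVL6, which act before and after fatty acid synthase, had no peak in either list.

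Among 16 genes of SREBP and LXR regulation the HepG2-labelled list had SREBF1 (20 reads) and the protease gene MBTPS1 (13 reads), and the WT-named list SREBF2 (15 reads). Of 24 genes of cholesterol synthesis and uptake 2 and 5 had a peak, HepG2-labelled first. CYP51A1, the lanosterol demethylase gene, held 8 and 17 reads. The reductase gene DHCR7 (14 reads) was in the HepG2-labelled list. MVD (16 reads), FDFT1 (15 reads), EBP (10 reads) and MSMO1 (7 reads) were in the WT-named list.

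Triglyceride and lipid droplet genes gave 0 and 1 of 30, the acyltransferase gene AGPAT2 with 12 reads. Fatty acid oxidation genes gave 2 and 6 of 24. ECHS1 held 12 reads in both lists and ETFA 7 in the HepG2-labelled list, while ACADVL (19 reads), ECI1 (12 reads), HADH and HSD17B4 (7 reads each) and PPARA (5 reads) were in the WT-named list. Of 23 uptake and transport genes 1 and 2 had a peak. These were ACSL3, with 61 and 20 reads on the strand opposite to the gene, and SLC27A2 with 7 reads in the WT-named list.

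Over all 145 lipid genes, 10 (6.90%, interval 3.36 to 12.3%) had a HepG2-labelled peak and 22 (15.2%, interval 9.76 to 22.1%) a WT-named one, 6 had both and 0 had a KO-named one. Over all 20037 protein-coding genes, taken whatever their expression, the shares were 4.90% and 6.43%. In the same genes 2.22% had both and only 0.0848% a KO-named peak, so a count of 0 among 145 genes says little. No set test was run, and the intervals of the lipid genes are not read as one. The lists were drawn up with earlier results known and hold SCD and FASN, so these shares are no support for an excess of lipid genes. SCD was the only one of them with more than 2 HepG2-labelled peaks. Within the lists, only ACSL3 held more reads at its deepest HepG2-labelled peak than FASN and SCD, and none did so in the WT-named list.

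**Figure D4:**
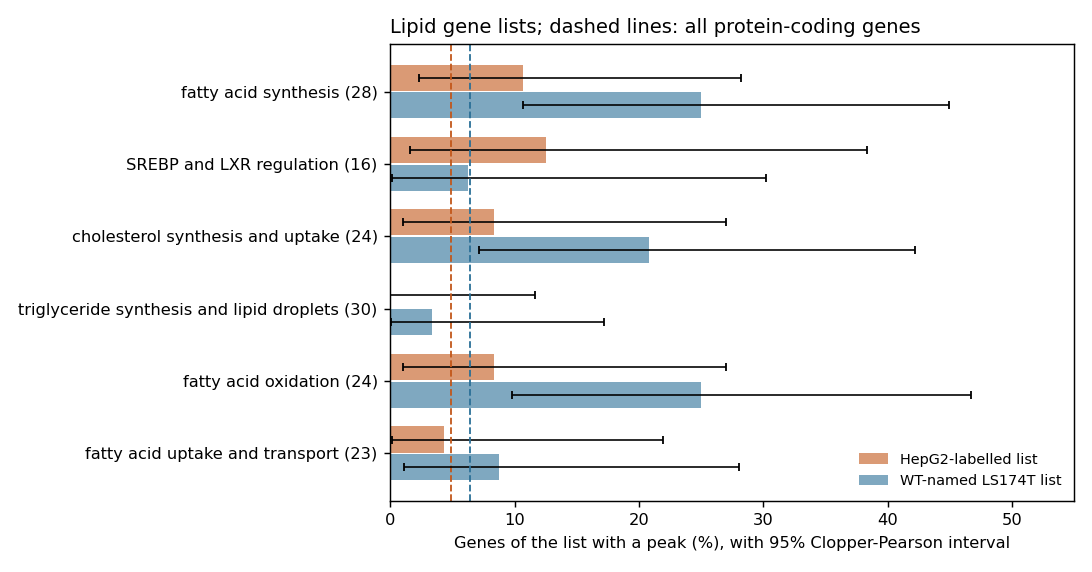
Share (%) of genes with at least 1 peak in each of 6 lipid gene lists (number of genes in brackets), HepG2-labelled and WT-named. Bars are shares with Clopper-Pearson 95% intervals, and dashed lines the shares over all protein-coding genes, 4.90% and 6.43%; the intervals are wide because the lists are short.

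The nearest peaks outside the spans lay far off, and no other gene of the table overlapped the summits (the snoRNA gene SNORD134 lies inside FASN, away from them). Around SCD they lay 110 kb below the span in both lists, at CWF19L1. Above the span the next lay 1453.0 kb away in the WT-named list, at OGA, and 3602.5 kb away in the HepG2-labelled list, at SLK. Around FASN they lay 145 kb below (PYCR1) and 141 kb above (SLC16A3) in the WT-named list, and 178 kb below (ANAPC11) in the HepG2-labelled list. In the KO-named list the nearest lay 566 kb below FASN, at ACTG1.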

How the data were processed

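Reads had been processed with cutadapt, BWA and MACS2 on the builds hg38 and mm10, per the submitters' processing notes. No source used here gives versions, settings or any pooling of replicates. The authors deposited peaks called separately for each strand, each with a fold enrichment (a ratio over local background), a −log10 p-value, a −log10 q-value and a score. In all 3706 human peaks the score was the −log10 q times 10, rounded down.

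Reads n and window reads were solved here with Python 3.11.15, numpy 2.4.6 and scipy 1.17.1. The fold was taken as n + 1 over λ + 1, and p as the upper Poisson tail beyond n at mean λ. The background λ was 0.02 times the window reads, from 200 bp extension and 10000 bp windows. All 3706 peaks had a solution of this form, which holds no term for an input. A solution was unique for 3705 peaks, and the other lay outside SCD and FASN. In a test on simulated HepG2 peaks 1557 of 1557 were recovered, with 0 wrong. The simulated peaks were made with the same formula and settings, so the test checks the solving only. It cannot show that these settings hold for the deposited peaks.

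Genes were assigned by summit with the RefSeq table, without strand. Where genes overlapped, small RNAs came first, pseudogenes next and the shortest coding or lncRNA gene last. Strands came from the RefSeq promoter table and, for FASN, from general knowledge. Lists shared a peak when at least 1 bp overlapped on the same strand. Genes named were SCD, FASN, lipid list genes with a peak, the 5 genes nearest to each by reads, and the nearest peaks outside. Alternatives were a −log10 q of at least 5, at least 10 reads, other assignment and overlap rules, and reads without the whole-number condition. Members and lists were chosen with earlier results of these data known. A few lipid genes are not reported here and were left out of the lists. The mouse liver list was not used here.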

Additional observations from a re-analysis of the deposited data

How the results depend on the processing

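The number of SCD and FASN peaks was the same with −log10 q of at least 5, with at least 10 reads and under both other assignment rules. Strand and the place of the deepest peaks were the same under the first 2 of these, sharing under these and both other overlap rules, and reads without the whole-number condition, the settings run for each. Counts over the lipid lists moved. With −log10 q of at least 5, fatty acid synthesis genes with a peak numbered 2 in the HepG2-labelled list and 5 in the WT-named list, and all lipid genes 8 and 19. With at least 10 reads the latter were 8 and 15. With genes taken on their own strand they were 11 and 19, where INSIG1 joined the former and genes without a listed strand could not count. All of these were within 1.5 times the reported counts of 3, 7, 10 and 22. No paired analysis was possible because each list is a single table without values per replicate, and leaving out a replicate could not be run for the same reason. The lists hold called peaks only, so a site with fewer reads than the caller needed has no value.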
